A study of Mus musculus with 12 samples.

Results

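The response to interferon gamma (IFN-gamma) was followed in 4T1 cells carrying the Cebpd guide RNA called sgRNA1. 4T1 was derived from a mammary tumour of a BALB/c mouse, and it is used to model triple-negative breast cancer. The 4 libraries of this cell line among the 12 of the series were chosen by their titles, and all 13601 genes that passed the filter on low counts were tested. The 2 sgRNA1 IFN-gamma libraries came from cells labelled Cebpd knockout and given IFN-gamma at 20 ng/ml for 24 hours. The 2 sgRNA1 vehicle libraries came from cells of the same label given vehicle. For comparison the series holds 2 IFN-gamma and 2 vehicle libraries of a line with another Cebpd guide, sgRNA2, also labelled Cebpd knockout. It also holds 2 IFN-gamma and 2 vehicle libraries of a line labelled control, whose guide targets the Rosa26 locus, a site often used as a neutral target. All groups share the 4T1 background and carry a guide RNA, so no library is of cells without a guide. The labels do not say whether each line is 1 clone or a pool of cells, so a difference between lines may come from the guide or from the line, and these cannot be told apart. Whether the 2 libraries of each group stem from different cultures is not said either, and p-values therefore reflect only how far these libraries spread, which may be technical.

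IFN-gamma is a cytokine of T cells and NK cells. It binds the receptor chains IFNGR1 and IFNGR2, and the kinases JAK1 and JAK2 then pass the signal on to transcription factors that bind DNA sites called GAS (gamma-activated sequence). Among the first targets are transcription factors of the IRF family, which bind a second kind of site, the ISRE (interferon-stimulated response element), so that an early wave of transcription leads to a later one. In tumour cells the pathway is known for antigen presentation, for chemokines that attract T cells, for the ligand PD-L1 and for arrest or death of the cells. Cebpd encodes C/EBP delta, a bZIP transcription factor that acts on inflammatory and acute phase genes. The question of the series is how cells with and without Cebpd respond to IFN-gamma.

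Cebpd (ENSMUSG00000071637.5, chr16:15887286-15891031 on GRCm38, + strand) was detected in all 4 sgRNA1 libraries, with 45.9 and 45.6 CPM (read counts scaled to the same library total) in the IFN-gamma libraries against 13.6 and 13.4 CPM in the vehicle libraries. The arms did not overlap, and its mRNA rose with IFN-gamma by 1.76 ± 0.10 on the log2 scale (fold change ± SE, edgeR adjusted p = 3.31e-11). The response was smaller than the control line's (2.66), with a difference of -0.90 ± 0.15 (edgeR adjusted p = 4.55e-05). In vehicle the sgRNA1 libraries were above the control libraries, which had 9.09 and 7.13 CPM, by 0.74 ± 0.12 (edgeR adjusted p = 5.53e-05). In IFN-gamma they differed from the control libraries, at 53.5 and 49.1 CPM, by -0.17 ± 0.08, which did not pass the test (edgeR adjusted p = 0.0917). In vehicle the level of Cebpd mRNA was thus not reduced in the sgRNA1 libraries labelled Cebpd knockout. In IFN-gamma both sgRNA1 libraries lay below both control libraries, but a reduction was not called. Small insertions or deletions made by a guide can leave an mRNA in place, and neither the target site of the guide nor the protein was analysed here, so the count does not check the label.

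Total counts were 19696592 and 18435431 in the sgRNA1 IFN-gamma libraries, against 20221146 and 16912710 in the sgRNA1 vehicle libraries. Cytosolic ribosomal protein mRNAs took 7.62% and 7.17% of the counts in the IFN-gamma libraries, against 11.2% in each vehicle library. Mitochondrially encoded mRNAs took 0.544% and 0.541% in the IFN-gamma libraries, against 0.814% and 0.839% in the vehicle libraries. Of 11 epithelial markers, 10 were detected well enough to test, among them Krt8 (671 and 676 CPM in IFN-gamma libraries, 947 and 909 CPM in vehicle libraries), which fits the label of a carcinoma line. Of the 10, 4 rose and 5 fell by the test given below, against 5 and 4 with the length offsets described further on. Markers of lymphocytes, NK cells, endothelium, erythroid cells and adipocytes had no tested member. Of 7 macrophage markers, 3 were tested, of which 2 rose and 1 fell. Cd68, a lysosomal glycoprotein, had 11.6 and 12.4 CPM in the IFN-gamma libraries against 4.63 and 4.89 CPM in the vehicle libraries, and Cd14, a coreceptor for bacterial lipopolysaccharide, 27.4 and 26.5 CPM against 20.5 and 20.0 CPM. Csf1r, a growth factor receptor of macrophages, fell, with 1.45 and 1.34 CPM in the IFN-gamma libraries against 3.72 and 1.99 CPM in the vehicle libraries, a call that was lost without vehicle replicate 1 or IFN-gamma replicate 2 (log2 fold changes of -0.51 and -0.99, edgeR adjusted p = 0.288 and 0.0604). Of 6 fibroblast markers 2 were tested, with summed levels of 30.7 and 27.4 CPM in the IFN-gamma libraries against 20.6 and 18.8 CPM in the vehicle libraries. Pdgfra, a growth factor receptor gene, rose by 0.57 ± 0.10, and the collagen gene Col1a1 was not called. The defining leukocyte gene Ptprc had 1 and 2 counts in the IFN-gamma libraries against 3 and 3 counts in the vehicle libraries.

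With IFN-gamma, 8350 of the 13601 tested genes passed an adjusted p below 0.05 in edgeR's quasi-likelihood test (61.4%), and such genes are said below to have risen or fallen. Of these, 4318 rose (31.7% of the tested genes) and 4032 fell (29.6%). At 2-fold or more, 937 rose (6.89%) and 724 fell (5.32%), so most called changes were smaller than that. In bulk RNA, a change in every cell and a change in some of the cells cannot be told apart. With 2 closely matching libraries an arm, the test reaches very small changes: the arms did not overlap for 10992 genes (80.8%), and edgeR's common biological coefficient of variation came to 4.67%. The share of called genes is the background against which each count below has to be read. The response differed from that of the control line for 7492 genes (55.1%), higher for 3658 (26.9%) and lower for 3834 (28.2%). It differed from that of the sgRNA2 line for 5820 genes (42.8%), higher for 2984 (21.9%) and lower for 2836 (20.9%). In control cells the response was called for 70.4% of the tested genes (36.4% higher, 34.1% lower), and in sgRNA2 cells for 59.7% (30.5% higher, 29.2% lower). Compared with control cells at the same treatment, sgRNA1 cells were higher for 31.6% and lower for 33.3% of the tested genes in IFN-gamma, and higher for 25.6% and lower for 26.9% in vehicle. CPM values below are of the sgRNA1 line unless another line is named, and lists are described by the counts of their tested members that were called and by their median log2 fold change, called the median. The median over all tested genes was 0.00 in sgRNA1 cells and 0.01 in control cells.

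**Figure D1:**
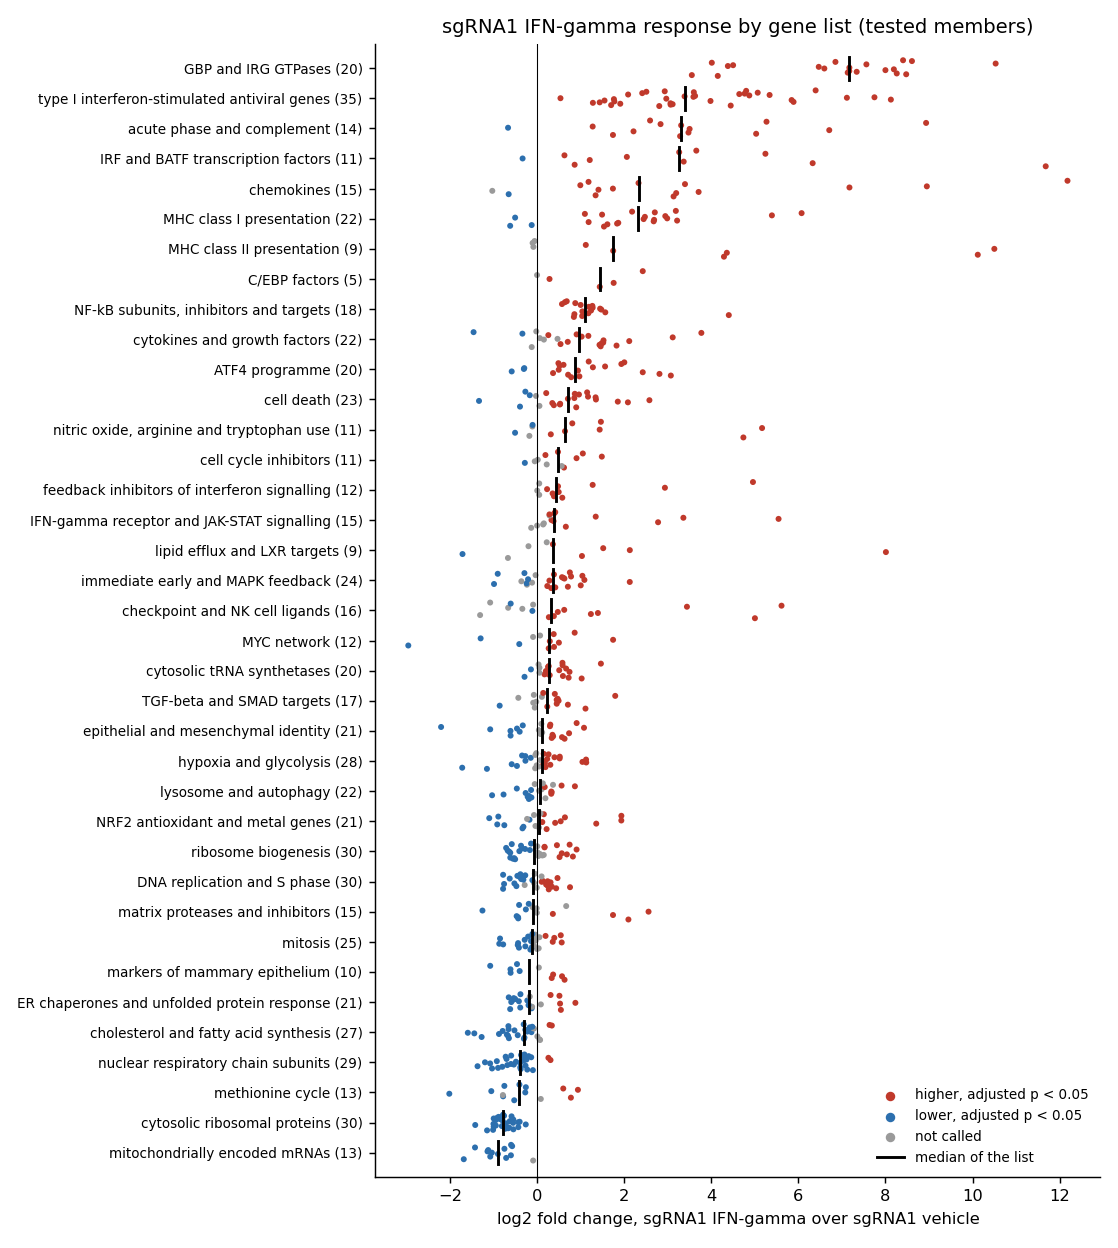
Log2 fold change of sgRNA1 IFN-gamma over sgRNA1 vehicle (x axis) for the tested members of each gene list (rows, number of members in brackets). Each point is 1 gene, red where it rose, blue where it fell and grey where it was not called, and the black bar is the median of the list. The GBP and IRG GTPases stood farthest right, with a median of 7.17, and the mitochondrially encoded mRNAs farthest left, with a median of -0.90.

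The DNA letters of GAS and ISRE were looked up in RefSeq promoter windows of GRCm38.p6 that run from 250 bases before to 50 bases after a gene's start. Of the tested genes, 10026 had a window and 7965 had exactly 1, and the shares below are over the latter. GAS was searched as TTCNNNGAA and ISRE as a pair of GAAA runs with any 2 letters between them, on both strands. ISRE letters stood in 30.2% of the 96 promoters of genes that rose at least 8-fold and in 12.2% of the 417 that rose 2- to 8-fold. They stood in 1.93% of the 2896 promoters of genes not called and in 3.16% of all promoters. GAS letters stood in 17.7% of the promoters of genes that rose at least 8-fold, in 11.3% of those that rose 2- to 8-fold, in 7.04% of those not called and in 7.07% of all. Of the 513 genes that rose at least 2-fold, 126 had either kind of letters in this window. In 36 of all windows both kinds occurred, and in 7 of these a GAS and an ISRE match overlapped. A match is a description of the letters and does not show that a factor bound there.

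**Figure D2:**
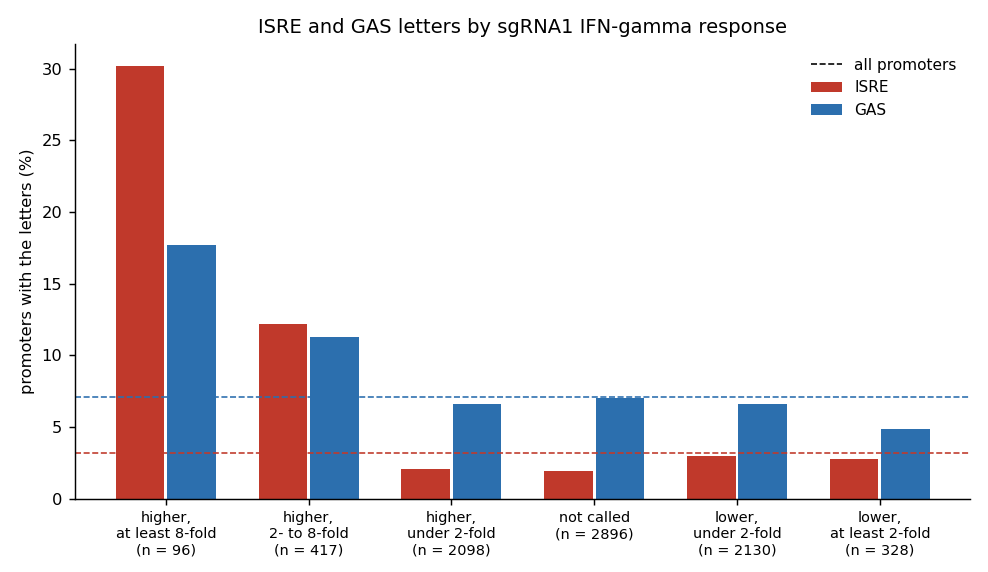
Share of promoters (percent, y axis) that hold ISRE letters (red) or GAS letters (blue) by class of sgRNA1 IFN-gamma response (x axis, number of genes in brackets). The dashed lines give the share over all 7965 promoters, 3.16% for ISRE and 7.07% for GAS. The bars of genes that rose at least 8-fold reached 30.2% for ISRE and 17.7% for GAS.

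The promoters of 5 genes described below are printed to show how the letters lie, with GAS or ISRE matches in capitals, 5′ to 3′ on the strand of the gene. Igtp (chr11:58199306-58199605, + strand), a GTPase gene, has a GAS match that starts 45 bases and an ISRE match that starts 34 bases before the gene's start. Gbp5 (chr3:142496684-142496983, + strand) has 2 GAS matches, at 245 and 52 bases, and an ISRE match on the other strand at 165 bases. Irf1 (chr11:53769764-53770063, + strand), the gene of an early transcription factor, has a GAS match at 90 bases and no ISRE match. It is shown by 1 of its 2 windows, so it is not among the shares. Psmb8 (chr17:34197945-34198244, + strand), an immunoproteasome gene, has a GAS match at 97 bases. Socs1 (chr16:10785487-10785786, - strand), a feedback inhibitor, has overlapping ISRE matches at 83 and 77 bases.
Igtp: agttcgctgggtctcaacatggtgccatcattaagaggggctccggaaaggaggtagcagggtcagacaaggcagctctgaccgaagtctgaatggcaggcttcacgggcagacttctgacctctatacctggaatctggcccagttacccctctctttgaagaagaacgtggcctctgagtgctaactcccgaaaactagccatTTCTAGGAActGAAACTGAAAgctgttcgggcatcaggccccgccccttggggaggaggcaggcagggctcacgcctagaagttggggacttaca
Gbp5: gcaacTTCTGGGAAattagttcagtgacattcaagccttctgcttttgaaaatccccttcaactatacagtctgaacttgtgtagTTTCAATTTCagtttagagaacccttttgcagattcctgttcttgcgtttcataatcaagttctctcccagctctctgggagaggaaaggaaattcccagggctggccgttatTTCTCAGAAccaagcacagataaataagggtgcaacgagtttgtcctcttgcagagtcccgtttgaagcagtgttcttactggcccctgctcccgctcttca
Irf1: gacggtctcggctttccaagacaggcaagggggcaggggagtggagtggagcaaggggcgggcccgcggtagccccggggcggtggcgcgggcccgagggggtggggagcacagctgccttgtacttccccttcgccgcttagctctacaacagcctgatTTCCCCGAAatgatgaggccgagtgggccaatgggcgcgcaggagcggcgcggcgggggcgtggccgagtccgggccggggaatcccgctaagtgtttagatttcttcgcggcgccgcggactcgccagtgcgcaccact
Psmb8: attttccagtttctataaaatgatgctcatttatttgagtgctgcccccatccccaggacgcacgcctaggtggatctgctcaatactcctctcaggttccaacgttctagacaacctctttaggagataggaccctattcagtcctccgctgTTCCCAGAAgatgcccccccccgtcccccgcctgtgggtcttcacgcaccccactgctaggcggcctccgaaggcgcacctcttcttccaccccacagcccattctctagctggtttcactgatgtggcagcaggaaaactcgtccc
Socs1: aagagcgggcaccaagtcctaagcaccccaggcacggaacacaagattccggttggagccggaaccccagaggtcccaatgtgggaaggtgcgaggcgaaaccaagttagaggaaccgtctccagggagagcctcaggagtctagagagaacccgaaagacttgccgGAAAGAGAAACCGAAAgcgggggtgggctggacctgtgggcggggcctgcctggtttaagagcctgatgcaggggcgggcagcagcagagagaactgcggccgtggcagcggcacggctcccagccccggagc

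Of the 15 tested members of the receptor and JAK-STAT list, 10 rose, none fell and 5 were not called, with a median log2 fold change of 0.38, against 1.44 in control cells. Stat2 had 169 and 166 CPM in the IFN-gamma libraries, against 15.8 and 17 CPM in the vehicle libraries. Its arms were far apart, with a log2 fold change of 3.36 ± 0.07 (edgeR adjusted p = 6.15e-17). Irf9, whose product is with that of Stat2 in the ISGF3 complex that binds ISREs, rose by 2.78 ± 0.09. Stat3, a STAT that answers mainly to cytokines of the interleukin-6 family, rose by 1.35 ± 0.06. The kinase gene Jak1 rose by 0.38 ± 0.04 and Jak2 by 0.33 ± 0.05. The receptor chains moved little: Ifngr1 had 35.3 and 36.4 CPM in the IFN-gamma libraries against 34.9 and 36.8 CPM in the vehicle libraries, and neither it nor Ifngr2 was called. Ifnar2, a chain of the type I interferon receptor, rose by 0.66 ± 0.07. The response was lower than in control cells for 14 of the 15 genes and higher for 1, Stat6, where the background of lower responses was 28.2%. The difference was -1.11 ± 0.07 for Jak2 and -1.11 ± 0.11 for Ifngr2. In the control line Ifngr2 had 47.0 and 47.4 CPM in IFN-gamma libraries against 20.3 and 19.3 CPM in vehicle libraries, arms that did not overlap.

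Of 12 genes that restrain interferon signalling, 9 rose and 3 were not called, with a median of 0.43. Socs1, whose product inhibits JAK kinases, had 52.0 and 47.6 CPM in the IFN-gamma libraries against 6.34 and 6.70 CPM in the vehicle libraries. The arms did not overlap, and the rise of 2.93 ± 0.10 (edgeR adjusted p = 2.67e-14) differed from the control line's, 2.98, by -0.04 ± 0.14, which did not pass the test (edgeR adjusted p = 0.818). Usp18, a protease that removes ISG15 and dampens type I interferon signalling, rose by 4.96 ± 0.13. Socs3, an inhibitor of interleukin-6 family signalling, rose by 1.28 ± 0.06, less than in control cells by a difference of -0.84 ± 0.09. The phosphatase gene Ptpn2 was not called, with 43.0 and 46.5 CPM in the IFN-gamma libraries against 44.7 and 44.5 CPM in the vehicle libraries. Ptpn11, the gene of the phosphatase SHP2, rose by 0.50 ± 0.05, whereas it fell in control cells, where the log2 fold change was -0.29. The difference of 0.79 ± 0.06 passed the test (edgeR adjusted p = 1.06e-08).

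**Figure D3:**
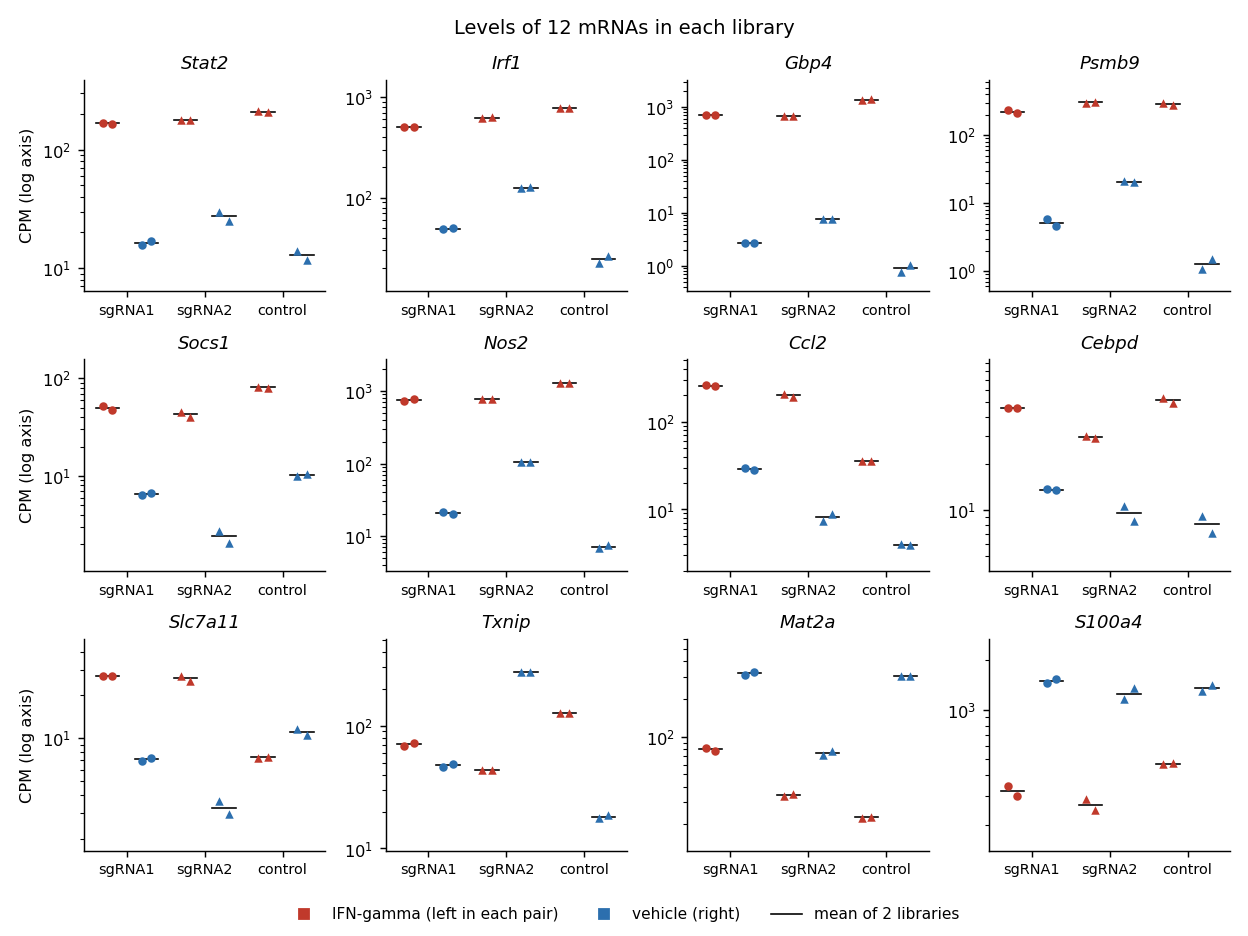
CPM (log axes) of 12 mRNAs in each library, in sgRNA1, sgRNA2 and control cells, with the IFN-gamma libraries (red) left of the vehicle libraries (blue) in each line. Points are single libraries, circles for sgRNA1 and triangles for the other lines, and bars are means of 2. Stat2 reached 169 and 166 CPM in the sgRNA1 IFN-gamma libraries, against 15.8 and 17 CPM in the sgRNA1 vehicle libraries, and Slc7a11 rose in sgRNA1 and sgRNA2 cells but was lower in IFN-gamma than in vehicle in control cells.

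All 11 tested members of the IRF and BATF list were called, 10 of them higher, with a median of 3.26 against 4.27 in control cells. Irf1, the early factor of the pathway, had 508 and 506 CPM in the IFN-gamma libraries and 48.8 and 49.7 CPM in the vehicle libraries. The arms were far apart (log2 fold change 3.37 ± 0.05, edgeR adjusted p = 7.97e-19). Irf8, best known from myeloid cells, rose by 3.26 ± 0.05 and Irf7, an amplifier of type I interferon, by 5.24 ± 0.09. Batf2, a basic leucine zipper factor, had 21.8 and 19.8 CPM in the IFN-gamma libraries and no count in the vehicle libraries. Against a floor of 3 counts per library this is at least 125-fold higher. Ciita and Nlrc5, the coactivators of class II and class I MHC genes, rose by 6.33 ± 0.32 and 3.66 ± 0.07. Irf3, the factor downstream of nucleic acid sensors, was the member that fell, by a log2 fold change of -0.33 ± 0.07. For 7 of the 11 genes the response was lower than in control cells and for none higher. For Irf1 part of the smaller response lay in the vehicle arm, where sgRNA1 cells were above control cells, at 22.6 and 26.6 CPM, by 1.00 ± 0.06 on the log2 scale. In IFN-gamma they were below them, at 777 and 779 CPM, by a difference of -0.62 ± 0.05.

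The guanylate-binding proteins (GBP) and immunity-related GTPases (IRG) attack the vacuoles of intracellular pathogens. All 20 tested members rose, with a median of 7.17 against a fitted 9.75 in control cells. In the control vehicle libraries Tgtp2 and Gbp11 had no count. Iigp1, Tgtp1, Gbp10, Gbp5 and Ifi47 had 3 counts or fewer in all there, so the size of the control median is uncertain. Gbp4 had 695 and 698 CPM in the IFN-gamma libraries against 2.72 and 2.72 CPM in the vehicle libraries, and Gbp2 had 734 and 719 CPM against 4.28 and 6.22 CPM. Both stood among the largest gains in CPM of all genes, with log2 fold changes of 8.0 ± 0.07 and 7.13 ± 0.09 (edgeR adjusted p = 2.44e-22 and 2.33e-20). Among the IRG genes, Igtp, whose promoter with adjacent GAS and ISRE letters is printed above, had 414 and 417 CPM in the IFN-gamma libraries against 2.47 and 1.87 CPM in the vehicle libraries. Gbp5, whose promoter is also shown, had 65.6 and 66.6 CPM against 0.101 and 0.362 CPM in the vehicle libraries. Iigp1 rose by 10.53 ± 0.14, Tgtp1 by 8.61 ± 0.17 and Irgm1, an IRG protein that regulates the others, by 4.01 ± 0.08. Tgtp1 and Tgtp2 are near-identical copies, as are several Gbp genes, so the split of reads between copies is uncertain. The response was lower than in control cells for 18 of the 20 genes and higher for none. In vehicle 15 of the genes were higher in sgRNA1 than in control cells, with a median difference of 1.59. In IFN-gamma 16 were lower and 2 higher, with a median difference of -0.75. Ifi47 is an IRG gene with 129.9 and 119 CPM in sgRNA1 IFN-gamma libraries against 5.44 and 5.55 CPM in sgRNA1 vehicle libraries. The control line had 131 and 128 CPM in IFN-gamma libraries and 3 and 0 counts in vehicle libraries. The IFN-gamma levels of both lines overlapped, while the vehicle levels did not, and the responses differed by -6.09 ± 0.36, a value that rests on the few control vehicle counts. Compared with sgRNA2 cells, the response was higher for 11 of the genes and lower for none, where 21.9% of all tested genes were higher.

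The antiviral genes best known from type I interferon rose without exception, 35 of 35, with a median of 3.39 against 3.90 in control cells. Zbp1, a sensor of Z-form nucleic acids, had 112 and 106 CPM in the IFN-gamma libraries against 1.06 and 1.57 CPM in the vehicle libraries. Its log2 fold change was 6.4 ± 0.11. Ifit3, of a family that binds foreign RNA, rose by 5.85 ± 0.18, and Oas3, which makes the second messenger of RNase L, by 5.34 ± 0.10. Isg15, a ubiquitin-like modifier, had 159 and 142 CPM in the IFN-gamma libraries against 19.3 and 19.3 CPM in the vehicle libraries, arms that did not overlap (log2 fold change 2.97 ± 0.08). The RNA sensor Ifih1 rose by 1.77 ± 0.07 and Isg20, an RNA exonuclease, by 0.54 ± 0.07. Mx1 had 1 count in the vehicle libraries together and a ratio of 170.5 between the arms, with a 95% counting interval from 30.2 to 6767. The response was lower than in control cells for 22 genes and higher for 1, Eif2ak2, the gene of the RNA-activated kinase PKR, with a difference of 0.47 ± 0.08. In vehicle 21 of these genes were higher in sgRNA1 than in control cells and 2 lower, with a median difference of 0.59. In IFN-gamma 10 were higher and 17 lower. Isg15 is an example where both arms were higher in sgRNA1 cells: control cells had 102 and 90.1 CPM in IFN-gamma libraries and 6.4 and 8.34 CPM in vehicle libraries. Compared with sgRNA2 cells, 26 of the genes responded more and 1 less. For Zbp1 the sgRNA1 vehicle libraries, at the values above, lay below the sgRNA2 vehicle libraries, at 4.41 and 4.77 CPM, and the responses differed by 1.47 ± 0.20.

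Of 22 genes that serve MHC class I presentation, 19 rose and 3 fell, with a median of 2.31 against 2.92 in control cells. Tap1, a subunit of the peptide transporter, had 418 and 429.6 CPM in the IFN-gamma libraries against 6.19 and 6.4 CPM in the vehicle libraries (log2 fold change 6.07 ± 0.06, edgeR adjusted p = 1.52e-21). The inducible proteasome subunits rose together: Psmb9 by 5.39 ± 0.09, Psmb8 by 2.94 ± 0.06 and Psmb10 by 2.47 ± 0.05. The class I heavy chain H2-D1 had 1067 and 1029 CPM in the IFN-gamma libraries against 296 and 291 CPM in the vehicle libraries, and H2-K1 had 262 and 261 CPM against 73.7 and 69.7 CPM. Neither pair of arms overlapped. B2m, the light chain, rose by 1.54 ± 0.04. Reads of H2 genes can be shared between near-identical copies, and BALB/c alleles differ from the reference genome, so the values of single H2 genes are uncertain. The 3 members that fell, Calr, Pdia3 and Canx, encode general chaperones of the endoplasmic reticulum, with log2 fold changes of -0.62 ± 0.04, -0.50 ± 0.04 and -0.12 ± 0.04. The response was lower than in control cells for 19 genes and higher for 1, Tapbpl, at 0.38, a call near the threshold. It was lost with either other scaling, with no filter, with a replicate block and with DESeq2 (edgeR and DESeq2 adjusted p between 0.0549 and 0.0867), and without any 1 of 6 of the 8 libraries compared, at 0.16 without control vehicle replicate 1 (edgeR adjusted p = 0.458). The fall of Canx was lost without sgRNA1 vehicle replicate 2 or IFN-gamma replicate 1 (-0.11 in both cases, edgeR adjusted p = 0.0786 and 0.084). In vehicle 18 of the genes were higher in sgRNA1 than in control cells. H2-T23, a non-classical class I gene, had 277 and 272 CPM in sgRNA1 IFN-gamma libraries and 34 and 35.2 CPM in sgRNA1 vehicle libraries, and in control cells 636 and 624 CPM in IFN-gamma libraries and 19.1 and 19.6 CPM in vehicle libraries. Its responses differed by -2.04 ± 0.08.

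Class II genes, which present peptides to CD4+ T cells, were at low levels before treatment. Of 9 tested members 6 rose and 3 were not called, with a median of 1.75 against 2.91 in control cells. Cd74, the invariant chain, had 103 and 103 CPM in the IFN-gamma libraries against 4.83 and 5.73 CPM in the vehicle libraries, with a log2 fold change of 4.29 ± 0.08. H2-Aa and H2-Eb1, class II chains, had no count in the vehicle libraries and were at least 42.4-fold and 55.0-fold higher in the IFN-gamma libraries. Rfx5, a factor of class II promoters, rose by 1.12 ± 0.09, and its partners Rfxap and Rfxank were not called. Over the list, the response was lower than in control cells for 4 genes and higher for none, with a median difference of -0.36. For 5 the difference was not called. In IFN-gamma 2 of the genes were higher than in control cells, 3 lower and 4 not called, with a median difference of 0.01. The response of Cd74 was smaller than in control cells by a difference of -3.49 ± 0.22. In the vehicle arm control cells had 0.517 and 0.734 CPM of Cd74, below both sgRNA1 vehicle libraries.

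Among 16 ligands of T cell and NK cell receptors, 9 rose, 2 fell and 5 were not called, with a median of 0.33 against 1.25 in control cells. Cd274, the gene of PD-L1, had 49.7 and 54.7 CPM in the IFN-gamma libraries against 1.21 and 2.11 CPM in the vehicle libraries. The arms were far apart, with a log2 fold change of 5.0 ± 0.19 (edgeR adjusted p = 1.32e-13). In control cells Cd274 reached 142 and 151 CPM in IFN-gamma libraries, and the response of sgRNA1 cells was lower by a difference of -1.45 ± 0.40. Without sgRNA1 vehicle replicate 2 that difference was -1.03 and not called (edgeR adjusted p = 0.11). Tnfsf10, the gene of the death ligand TRAIL, rose by 5.61 ± 0.37, and Lgals9, a ligand of TIM-3, by 1.40 ± 0.09. Ulbp1, a ligand of the activating receptor NKG2D, fell, with 49.8 and 52.1 CPM in the IFN-gamma libraries against 77.8 and 77.4 CPM in the vehicle libraries. Cd47, the ligand that restrains phagocytosis, rose by 0.38 ± 0.05, which was less than in control cells by a difference of -0.88 ± 0.07. Cd68 rose beside these immune genes, as given above, while Ptprc stayed at 3 counts or fewer, and the part of other cells was not tested.

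Of 15 tested chemokine genes 13 rose, with a median of 2.33 against 1.52 in control cells. The ligands of CXCR3, a receptor of activated T cells, had the largest folds of the list. Cxcl9 had 279 and 289 CPM in the IFN-gamma libraries and 1 count in each vehicle library, a ratio of 5178 with a 95% counting interval from 1433 to 42765. Cxcl10 had 138 and 149 CPM against 1.01 and 0.966 CPM in the vehicle libraries, and its log2 fold change of 7.17 ± 0.12 did not differ from the control line's beyond the test (difference -0.13 ± 0.31, edgeR adjusted p = 0.745). Ccl2, which attracts monocytes, had 259.8 and 253 CPM in the IFN-gamma libraries against 29.8 and 28.5 CPM in the vehicle libraries. Its log2 fold change of 3.13 ± 0.06 did not differ from the control line's beyond the test (difference -0.03 ± 0.12, edgeR adjusted p = 0.83), while its level was higher than theirs in both arms, by 2.84 ± 0.06 in IFN-gamma and 2.87 ± 0.10 in vehicle. Among the chemokines of neutrophils, Cxcl1 had 945 and 907 CPM in the IFN-gamma libraries against 274 and 281 CPM in the vehicle libraries, and Cxcl5 had 1189 and 1133 CPM against 505 and 519 CPM. Both rose, by 1.74 ± 0.05 and 1.18 ± 0.05, and the responses exceeded those of control cells by 0.54 ± 0.07 and 0.67 ± 0.07. Cxcl3 rose by 2.33 ± 0.09, with a difference from control cells of 2.12 ± 0.12. Cx3cl1, a membrane-bound chemokine, went the other way, rising by 1.41 ± 0.06 with a difference of -1.82 ± 0.08. In all, 7 chemokine responses were higher than in control cells (background 26.9%), 2 lower and 6 not called for the difference. The median of the differences by gene was -0.03, although the medians of the list in the 2 lines lay further apart.

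Of 22 cytokine and growth factor genes 15 rose and 2 fell, with a median of 0.96. Il6 had 21.4 and 20.1 CPM in the IFN-gamma libraries against 2.37 and 2.41 CPM in the vehicle libraries, with a log2 fold change of 3.11 ± 0.19. In control cells Il6 had 0.677 and 1.18 CPM in IFN-gamma libraries and 2 counts in all in vehicle libraries. The sgRNA1 libraries were higher in both arms, by 4.48 ± 0.22 in IFN-gamma, and the responses did not differ beyond the test (difference -0.88 ± 0.81, edgeR adjusted p = 0.379). Il1a, an alarmin, had 387 and 379 CPM against 86.9 and 89.8 CPM in the vehicle libraries (log2 fold change 2.12 ± 0.05). Csf2, which encodes GM-CSF, rose by 1.82 ± 0.15, with a difference from control cells of 2.30 ± 0.27. Csf3, which encodes G-CSF, had 456 and 471 CPM in the IFN-gamma libraries against 178 and 165 CPM in the vehicle libraries and rose by 1.43 ± 0.05. Il15, a cytokine of NK and T cells, rose by 1.52 ± 0.15, less than in control cells by a difference of -2.20 ± 0.22. Tslp, a cytokine of epithelial barriers, fell, with 16.4 and 13.2 CPM in the IFN-gamma libraries against 39.7 and 42.0 CPM in the vehicle libraries.

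All 18 genes of the NF-kB list rose, with a median of 1.11 against 1.00 in control cells. The list holds subunits (Rela, Relb, Rel, Nfkb1, Nfkb2), inhibitors such as Nfkbia, and targets. Rela had 124 and 126 CPM in the IFN-gamma libraries against 58.0 and 51.7 CPM in the vehicle libraries, with a log2 fold change of 1.19 ± 0.05 against 0.16 in control cells and a difference of 1.03 ± 0.07. Nfkbia rose by 1.57 ± 0.05 and the adhesion molecule Icam1 by 4.4 ± 0.10. Ptgs2, the gene of the prostaglandin synthase COX-2, had 817 and 838 CPM in the IFN-gamma libraries against 292 and 315 CPM in the vehicle libraries. In control cells it had 201 and 205 CPM in IFN-gamma libraries against 289 and 277 CPM in vehicle libraries. It thus rose by 1.45 ± 0.05 in sgRNA1 cells and fell in control cells (log2 fold change -0.48), with a difference of 1.92 ± 0.07 (edgeR adjusted p = 2.7e-13). The NF-kB list was mixed in its differences from control cells, 5 higher and 8 lower.

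Of 14 acute phase and complement genes, secreted proteins of inflammation that the liver makes in quantity, 13 rose and 1 fell. The median was 3.30 against a fitted 6.14 in control cells. In the control vehicle libraries C1s2, Cfb and Serping1 had no count and C1rb had 1, so the size of the control median is uncertain. C3, the central complement component, had 422 and 437 CPM in the IFN-gamma libraries against 89.0 and 96.3 CPM in the vehicle libraries (log2 fold change 2.21 ± 0.05). Control cells had 1335 and 1349 CPM of C3 in IFN-gamma libraries and 70.7 and 69.7 CPM in vehicle libraries, and the response of sgRNA1 cells was lower by a difference of -2.04 ± 0.07. Serpina3g, a protease inhibitor, rose by 5.27 ± 0.08, C1s1, a protease of the classical pathway, by 5.03 ± 0.09, and C4b by 6.71 ± 0.24. Saa3, a serum amyloid A gene, had 18.6 and 16.2 CPM in the IFN-gamma libraries against 2.82 and 1.99 CPM in the vehicle libraries and rose by 2.83 ± 0.21. Lcn2, a siderophore-binding protein and a known C/EBP target, had 128 and 128 CPM in the IFN-gamma libraries against 53.0 and 52.9 CPM in the vehicle libraries. In control cells Lcn2 had 162 and 169 CPM in IFN-gamma libraries and 9.61 and 8.70 CPM in vehicle libraries, and the responses differed by -2.90 ± 0.09. Cp, the copper-binding ferroxidase ceruloplasmin, fell, with 87.8 and 89.8 CPM in the IFN-gamma libraries against 141 and 141 CPM in the vehicle libraries. In vehicle 10 of the list's genes were higher in sgRNA1 than in control cells and none was lower, with a median difference of 2.67. In IFN-gamma 4 were higher, 3 lower and 7 not called, with a median difference of -0.04. For 10 genes the response was lower than in control cells and for none higher.

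Of 5 tested genes of the C/EBP list 4 rose, with a median of 1.44. The list holds Cebpd itself and Cebpz, which is not a bZIP factor. Cebpb, the paralog of Cebpd, had 301 and 292 CPM in the IFN-gamma libraries against 113 and 106 CPM in the vehicle libraries and rose by 1.44 ± 0.07. The responses of Cebpb did not differ from control cells beyond the test (difference 0.16 ± 0.10, edgeR adjusted p = 0.182). C/EBP letters (TTGCNNCAA, both strands) stood in 2.08% of the promoters of genes that rose at least 8-fold, in 2.16% of those that rose 2- to 8-fold, and in 1.46% of all promoters. Of 11 genes of nitric oxide, arginine and tryptophan use, 7 rose and 2 fell, with a median of 0.64. Nos2, which makes nitric oxide from arginine and is a known target of IRF1 and C/EBP factors in macrophages, had 724 and 773 CPM in the IFN-gamma libraries against 21.4 and 20.2 CPM in the vehicle libraries. It rose by 5.17 ± 0.06 (edgeR adjusted p = 2.16e-21), less than in control cells by a difference of -2.35 ± 0.09. Acod1, which makes itaconate, had 72.9 and 74.1 CPM against 2.16 and 3.44 CPM in the vehicle libraries. Gch1, which supplies the cofactor of nitric oxide synthase, rose by 1.44 ± 0.13, the arginine importer Slc7a1 by 0.81 ± 0.05 and Ass1, which regenerates arginine, by 0.64 ± 0.07. Slc7a1 fell in control cells, with a log2 fold change of -0.75 and a difference of 1.55 ± 0.07. Arg1 was at 0.422 and 0.199 CPM in the IFN-gamma libraries against 0.453 and 0.241 CPM in the vehicle libraries, and no change was detectable at this depth.

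Of 23 cell death genes 17 rose and 4 fell, with a median of 0.71. The inflammatory caspases were among the largest rises: Casp4 had 20.3 and 19.4 CPM in the IFN-gamma libraries against 3.57 and 3.02 CPM in the vehicle libraries (log2 fold change 2.58 ± 0.14), Casp1 rose by 2.08 ± 0.14 and Casp12 by 1.85 ± 0.07. Gsdmd, the gene of a pore-forming protein, rose by 1.17 ± 0.09. The death receptor gene Fas rose by 1.34 ± 0.09, and Mlkl, the effector of necroptosis, by 0.96 ± 0.05. Among BCL2 relatives, Bak1 rose by 0.90 ± 0.05 and Bcl2l1 by 0.52 ± 0.05, and Bax fell, with a log2 fold change of -0.39 ± 0.07, which was -0.08 and not called with the length offsets described below (edgeR adjusted p = 0.331). The response was lower than in control cells for 13 genes and higher for 5. Fas had 13.2 and 14 CPM in sgRNA1 vehicle libraries, above the 2.94 and 3.88 CPM of the control vehicle libraries, and its responses differed by -2.31 ± 0.16.

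Genes of the ATF4 programme of amino acid supply rose in the majority. ATF4 is a transcription factor whose translation increases when the integrated stress response is active, and it acts on genes of amino acid transport and synthesis with C/EBP partners. Of 20 such genes 17 rose and 3 fell, with a median of 0.86 against 0.18 in control cells and 1.03 in sgRNA2 cells. The responses were higher than in control cells for 15 genes, where the background was 26.9%, and lower for 2. Slc7a11, the cystine transporter, had 27.3 and 27.2 CPM in the IFN-gamma libraries against 6.95 and 7.30 CPM in the vehicle libraries. The control line had 7.30 and 7.45 CPM in IFN-gamma libraries against 11.7 and 10.5 CPM in vehicle libraries. The direction was thus opposite in the lines, with log2 fold changes of 1.93 ± 0.11 in sgRNA1 and -0.59 in control cells, and the difference of 2.53 ± 0.17 passed the test (edgeR adjusted p = 8.47e-10). In sgRNA2 cells it rose as well, by 2.98. Its promoter (chr3:50443564-50443863, - strand) holds 2 matches of the letters TTGCATCA, the C/EBP-ATF response element (CARE), at 66 and 47 bases before the start, in capitals here. These letters stood in 0.59% of all promoters.
Slc7a11: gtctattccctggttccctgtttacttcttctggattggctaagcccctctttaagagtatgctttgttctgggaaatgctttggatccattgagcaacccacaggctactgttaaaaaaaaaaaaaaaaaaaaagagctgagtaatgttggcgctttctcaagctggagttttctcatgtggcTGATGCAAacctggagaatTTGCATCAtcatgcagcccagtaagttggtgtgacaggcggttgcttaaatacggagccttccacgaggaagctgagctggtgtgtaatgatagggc

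Atf3 had 143 and 141 CPM in the IFN-gamma libraries against 16.8 and 17.1 CPM in the vehicle libraries (log2 fold change 3.07 ± 0.06). Chac1, which degrades glutathione, rose by 2.81 ± 0.08 and Trib3, a pseudokinase of the same programme, by 2.0 ± 0.09. Ddit3, which encodes the C/EBP family member CHOP, rose by 2.43 ± 0.08, and its response did not differ from the control line's beyond the test (difference 0.05 ± 0.12, edgeR adjusted p = 0.755). Atf4 itself had 369 and 352 CPM in the IFN-gamma libraries against 216 and 224 CPM in the vehicle libraries, a rise of 0.71 ± 0.04 where control cells fell (-0.53). Asns, asparagine synthetase, rose by 0.97 ± 0.05 and Mthfd2, a mitochondrial folate enzyme, by 0.94 ± 0.06, with differences from control cells of 0.99 ± 0.07 and 1.38 ± 0.08. The members that fell were Psat1 and Phgdh, enzymes of serine synthesis, and Ddit4, an inhibitor of mTORC1, with log2 fold changes of -0.29 ± 0.04, -0.30 ± 0.05 and -0.58 ± 0.05. Of 20 cytosolic tRNA synthetase genes, many of them known ATF4 targets, 15 rose and 2 fell, with a median of 0.28, and 16 responses were higher than in control cells. Aars had 476 and 488 CPM in the IFN-gamma libraries against 238 and 236 CPM in the vehicle libraries, with a difference from control cells of 1.06 ± 0.06. Wars, which is also a known IFN-gamma target, rose by 1.47 ± 0.05, against 0.52 in control cells.

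The NRF2 and metal list was split, with 9 of 21 genes higher and 7 lower, and its median of 0.04 changed sign to -0.05 under upper quartile scaling. Mt2, a metallothionein that binds zinc, had 168 and 171 CPM in the IFN-gamma libraries against 42.0 and 46.8 CPM in the vehicle libraries. The arms did not overlap, and the rise of 1.93 ± 0.08 exceeded the control line's response by 2.09 ± 0.11. Hmox1, haem oxygenase, rose by 1.36 ± 0.07, with a difference from control cells of 1.30 ± 0.10. Prdx1, a peroxidase, fell, with 668 and 634 CPM in the IFN-gamma libraries against 1343 and 1447 CPM in the vehicle libraries, and the NRF2 targets Nqo1, Srxn1 and Gclm were not called.

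Genes of cholesterol and fatty acid synthesis fell: 20 of 27 were lower and 2 higher, with a median of -0.30 against -0.58 in control cells, beside a background of 29.6% lower. Insig1, a sterol sensor of the endoplasmic reticulum, had 68.2 and 62.3 CPM in the IFN-gamma libraries against 199 and 195 CPM in the vehicle libraries. Idi1, an enzyme of isoprenoid synthesis, had 149 and 148 CPM against 399.6 and 410.0 CPM in the vehicle libraries. The log2 fold changes were -1.59 ± 0.06 and -1.44 ± 0.05, and neither pair of arms overlapped. Hmgcs1, which makes a precursor of sterols, fell, with a log2 fold change of -0.88 ± 0.04. The genes of the governing factors, Srebf1 and Srebf2, were the members that rose, by 0.34 ± 0.05 and 0.29 ± 0.05. The fall was smaller than in control cells for Idi1 (difference 0.60 ± 0.08) and larger for Insig1 (-0.93 ± 0.08), and over the list 14 differences were called positive, 5 negative and 8 were not called. Fasn, fatty acid synthase, was not called in sgRNA1 cells (it fell with the length offsets described below, at -0.30), with 348 and 357 CPM in IFN-gamma libraries and 361 and 341 CPM in vehicle libraries, while in control cells it had 424 and 407 CPM in IFN-gamma libraries against 778 and 815 CPM in vehicle libraries. The difference of 0.95 ± 0.06 passed the test (edgeR adjusted p = 1.05e-09). Of 9 lipid efflux genes 5 rose and 1 fell, with a median of 0.36 against 1.41 in control cells. Abcg1, a cholesterol exporter, rose by 1.03 ± 0.20, less than in control cells by a difference of -2.25 ± 0.30. Apol9a, an apolipoprotein L gene, rose by 2.13 ± 0.06.

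Mat2a, which makes the methyl donor S-adenosylmethionine, had 81.0 and 77.5 CPM in the IFN-gamma libraries against 313 and 328 CPM in the vehicle libraries. It had the largest fall of the methionine cycle list, of which 8 of 13 genes fell and 3 rose, with a median of -0.41. Its log2 fold change was -2.02 ± 0.05 (edgeR adjusted p = 1.2e-16). In control cells Mat2a had 22.5 and 23.1 CPM in IFN-gamma libraries against 308 and 308 CPM in vehicle libraries, a larger fall, with a difference of 1.74 ± 0.07. Mtap, which salvages methionine, had 433 and 424 CPM in the IFN-gamma libraries against 878 and 899 CPM in the vehicle libraries and a log2 fold change of -1.05 ± 0.04. Mtr, which regenerates methionine with a folate cofactor, rose by 0.60 ± 0.12.

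Genes of DNA replication and S phase were split, with 11 of 30 higher, 14 lower and a median of -0.09, whereas the median of control cells was -0.60. For 21 of the 30 genes the response was higher than in control cells and for 2 lower, against backgrounds of 26.9% and 28.2%. Ccne2, a cyclin of S phase entry, had 51.5 and 49.9 CPM in the IFN-gamma libraries against 84.6 and 89.9 CPM in the vehicle libraries. In control cells it had 7.88 and 5.86 CPM in IFN-gamma libraries against 75.2 and 70.9 CPM in vehicle libraries. The fall of -0.78 ± 0.07 on the log2 scale in sgRNA1 cells was thus much smaller than the control line's -3.40, with a difference of 2.62 ± 0.12 (edgeR adjusted p = 8.84e-12). Cdc6, a licensing factor, was not called, with 40.1 and 40.1 CPM in the IFN-gamma libraries and 41.6 and 39.0 CPM in the vehicle libraries, against a log2 fold change of -1.48 in control cells. Cdt1, another licensing factor, rose by 0.76 ± 0.06, and Tk1, thymidine kinase, fell, with a log2 fold change of -0.78 ± 0.05.

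Of 25 mitosis genes 13 fell, 5 rose and 7 were not called, with a median of -0.11, and 18 responses were lower than in control cells and none higher. Cdc20, an activator of the anaphase-promoting complex, had 112 and 114 CPM in the IFN-gamma libraries against 211 and 200.2 CPM in the vehicle libraries. Ccnb2, a mitotic cyclin, had 129 and 119 CPM against 213 and 212 CPM. Both fell, with log2 fold changes of -0.87 ± 0.05 and -0.78 ± 0.05, and neither pair of arms overlapped. Mki67, the proliferation marker, rose by 0.39 ± 0.05, and Aurka and Tpx2 were not called. Of 11 cell cycle inhibitors 6 rose and 1 fell, with a median of 0.48. Gadd45b, a stress gene, rose by 1.49 ± 0.05 and Rb1 by 1.05 ± 0.12. Cdkn1a, the gene of p21, had 28.1 and 33.0 CPM in the IFN-gamma libraries against 26 and 26.4 CPM in the vehicle libraries and missed the threshold (edgeR adjusted p = 0.0512). Cdkn1b, the gene of p27, fell, with a log2 fold change of -0.28 ± 0.05 against 0.85 in control cells.

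Myc, a factor that drives ribosome production and growth, had 199 and 208 CPM in the IFN-gamma libraries against 157 and 156 CPM in the vehicle libraries, a rise of 0.38 ± 0.04. The control line had 96.1 and 101 CPM in IFN-gamma libraries against 205 and 197 CPM in vehicle libraries, so the directions were opposite and the difference was 1.41 ± 0.06 (edgeR adjusted p = 8.14e-12). Of 12 genes of the MYC network 7 rose and 3 fell, with a median of 0.28. Mxd1, an antagonist of MYC, rose by 1.74 ± 0.16, and Mxd3 fell, with a log2 fold change of -1.30 ± 0.10. Mir17hg, the host gene of the miR-17-92 cluster and a known MYC target, was among the 12 largest falls in fold that were called without overlap of the arms and averaged 1 CPM or more. It had 3.19 and 3.18 CPM in the IFN-gamma libraries against 23.3 and 26.3 CPM in the vehicle libraries (log2 fold change -2.96 ± 0.14, edgeR adjusted p = 5.57e-12). The mature miRNAs of the cluster were not measured. Their RefSeq sequences are printed with the seed (bases 2 to 8) in capitals, to show that miR-17 and miR-20a share the seed AAAGUGC and that miR-19a and miR-19b share GUGCAAA.
mmu-miR-17-5p: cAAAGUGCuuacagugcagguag
mmu-miR-18a-5p: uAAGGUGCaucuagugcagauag
mmu-miR-19a-3p: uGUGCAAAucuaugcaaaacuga
mmu-miR-20a-5p: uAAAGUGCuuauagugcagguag
mmu-miR-19b-3p: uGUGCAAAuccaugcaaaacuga
mmu-miR-92a-3p: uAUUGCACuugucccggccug

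Ribosome biogenesis factors make and assemble ribosomal subunits in the nucleolus. In sgRNA1 cells 9 of 30 rose and 15 fell, with a median of -0.07. In control cells the median was -1.61 and in sgRNA2 cells 0.70. The response was higher than in control cells for 28 of the 30 genes and lower for 2, and compared with sgRNA2 cells it was higher for 0 and lower for 27. Mdn1, a remodelling ATPase of the large subunit, had 73.4 and 79.2 CPM in the IFN-gamma libraries against 41.9 and 44.5 CPM in the vehicle libraries. In control cells it had 30.8 and 31.0 CPM in IFN-gamma libraries against 104 and 114 CPM in vehicle libraries. It rose by 0.82 ± 0.06 in sgRNA1 cells and fell in control cells, with a difference of 2.63 ± 0.09 (edgeR adjusted p = 2.27e-13). Polr1a, the large subunit of RNA polymerase I, rose by 0.91 ± 0.07, against -0.67 in control cells. Nop56, a small nucleolar RNP protein, fell in both lines, with 349 and 341 CPM in sgRNA1 IFN-gamma libraries against 534 and 542 CPM in sgRNA1 vehicle libraries, and the fall was smaller than in control cells by 1.89 ± 0.06. E-box letters (CACGTG, the site of MYC, read alike on both strands) stood in 15.1% of the 603 promoters of genes whose response was at least 2-fold above that of control cells. They stood in 6.76% of the 592 with a response at least 2-fold below it and in 10.3% of all promoters. In the same classes above and below control, the letters TTGCNNCAA, which leave out the C/EBP palindrome, stood in 1.16% and 1.52%. CARE letters stood in 1.16% and 0.507%. GAS letters stood in 10.3% and 8.45% there, and ISRE letters in 3.48% and 6.42%. What these shares stem from was not tested.

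**Figure D4:**
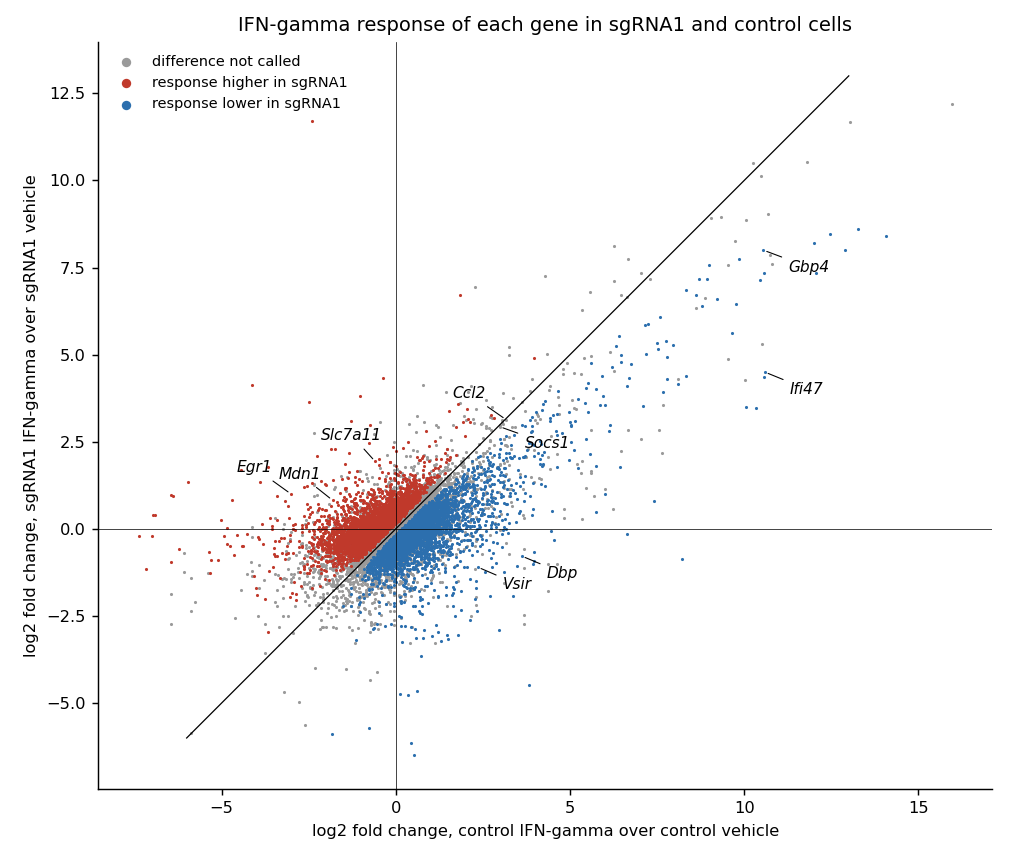
Log2 fold change with IFN-gamma in sgRNA1 cells (y axis) against that in control cells (x axis) for the 13601 tested genes. Red points responded more and blue points less in sgRNA1 than in control cells, grey points were not called for the difference, and the diagonal marks equal responses. Gbp4 (8.0 in sgRNA1 and 10.55 in control cells) lies below the diagonal, Slc7a11, Egr1 and Mdn1 lie above 0 on the y axis and below 0 on the x axis, and Dbp and Vsir lie the other way round.

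All 30 cytosolic ribosomal protein mRNAs of the list fell, with a median of -0.78 against -0.15 in control cells, and 27 of the responses were lower than there. In vehicle 23 were higher in sgRNA1 than in control cells and none lower, with a median difference of 0.39. In IFN-gamma 16 were lower and 14 not called, with a median difference of -0.18. In sgRNA2 cells 27 fell, with a median of -0.40. Rpl11 had 652 and 601 CPM in the IFN-gamma libraries against 1265 and 1259 CPM in the vehicle libraries (log2 fold change -1.01 ± 0.05). Eef1a1, a translation elongation factor, had 8468 and 8489.8 CPM in the IFN-gamma libraries against 17926 and 18866 CPM in the vehicle libraries, the largest fall in CPM of all genes. In control cells it was not called. Of nuclear respiratory chain genes 27 of 29 fell, with a median of -0.39, for example Cox7b with 121 and 112 CPM in the IFN-gamma libraries against 299.9 and 302 CPM in the vehicle libraries. Of the 13 mitochondrially encoded mRNAs 12 fell, with a median of -0.90 against 0.20 in control cells. In control cells 5 rose, 3 fell and 5 were not called. The responses of 11 were lower in sgRNA1 than in control cells, with a median difference of -1.12. In sgRNA2 cells 10 fell, with a median of -0.86, and 10 of the differences from sgRNA2 cells were not called. mt-Co1 had 1941 and 1986 CPM in the IFN-gamma libraries against 3153 and 3275 CPM in the vehicle libraries. In control cells mt-Co1 had 6169 and 6604 CPM in IFN-gamma libraries against 2194 and 1971 CPM in vehicle libraries, and the responses differed by -2.33 ± 0.07.

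Gene length moved with these results. Across 13523 genes with an annotated exonic length, Spearman's rho of the log2 fold change with length was 0.337 in sgRNA1 cells, 0.192 in sgRNA2 cells and 0.171 in control cells, as a description over genes, which are not independent. The median log2 fold change of sgRNA1 cells was -0.40 in the shortest class of genes (165 to 2176 bases), then -0.12, 0.00 and 0.10, and 0.28 in the longest class (7261 to 123179 bases). Processed pseudogenes, 340 in number, had a median of -0.70, with 114 lower and 13 higher. With offsets that remove the trend of each library with length, an alternative chosen after the data were seen, 28 of the 30 ribosomal protein genes still fell and 1 rose, with a median of -0.55. Under the same offsets 18 of the 29 nuclear respiratory chain genes fell, with a median of -0.19, and 7 of the 13 mitochondrially encoded mRNAs fell, with a median of -0.39. What the trend with length comes from was not tested.

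**Figure D5:**
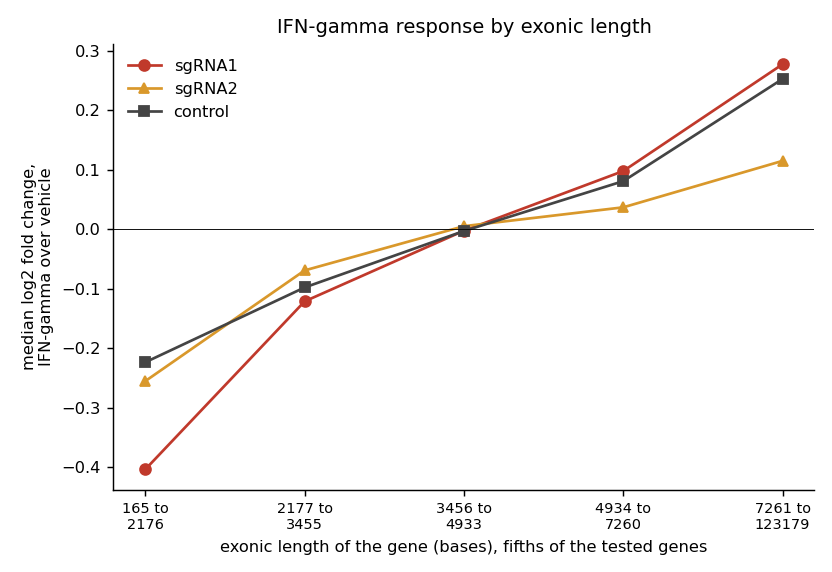
Median log2 fold change with IFN-gamma (y axis) in 5 classes of about equal numbers of genes by exonic length in bases (x axis), for sgRNA1 (circles), sgRNA2 (triangles) and control cells (squares). In sgRNA1 cells the medians ran from -0.40 in the shortest to 0.28 in the longest class.

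Hypoxia and glycolysis genes moved little as a list, with 14 of 28 higher, 8 lower and a median of 0.11. Under upper quartile scaling 8 were higher and 10 lower, with a median of 0.01. Hk2, a hexokinase, had 171 and 183 CPM in the IFN-gamma libraries against 90.1 and 81.6 CPM in the vehicle libraries and rose by 1.04 ± 0.06. Ldha, lactate dehydrogenase, fell, with a log2 fold change of -0.27 ± 0.04, and the HIF targets Vegfa and Car9 were not called. In sgRNA2 cells the median was -0.82, and all 28 responses were higher in sgRNA1 than in sgRNA2 cells, where the background was 21.9%. Vegfa had 51.5 and 49.3 CPM in sgRNA1 IFN-gamma libraries and 50.2 and 52.0 CPM in sgRNA1 vehicle libraries. The sgRNA2 line had 57.7 and 62.6 CPM in IFN-gamma libraries and 237 and 229 CPM in vehicle libraries, and the sgRNA2 vehicle libraries were above the others.

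Chaperones of the endoplasmic reticulum fell in the majority, 12 of 21, with 5 higher and a median of -0.20 against 0.33 in control cells. Hspa5, the chaperone BiP, had 2006 and 1862 CPM in the IFN-gamma libraries against 2588 and 2582 CPM in the vehicle libraries (log2 fold change -0.42 ± 0.04), and Pdia6, a disulfide isomerase, changed by -0.65 ± 0.04. Herpud1, a factor of protein degradation there, rose by 0.88 ± 0.05. Responses were lower than in control cells for 13 genes and higher for 1, Dnajb11. Of 22 lysosome and autophagy genes 6 rose and 9 fell. The median of 0.08 changed sign to -0.02 under upper quartile scaling and to -0.02 with the length offsets, where 7 rose and 7 fell. Sqstm1, the autophagy receptor p62, rose by 0.87 ± 0.04, and Ctsl, a lysosomal protease, had 986 and 934 CPM in the IFN-gamma libraries against 1629 and 1646 CPM in the vehicle libraries, a log2 fold change of -0.77 ± 0.04.

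Of the immediate early and MAPK feedback genes, 15 of 24 rose and 5 fell, with a median of 0.36 against -0.32 in control cells and 13 responses higher than in control cells and 4 lower. Fos, an AP-1 subunit, had 7.40 and 8.40 CPM in the IFN-gamma libraries against 2.11 and 1.45 CPM in the vehicle libraries (log2 fold change 2.13 ± 0.24). Egr1, a zinc finger factor, had 14.5 and 13.9 CPM in the IFN-gamma libraries against 6.19 and 8.03 CPM in the vehicle libraries. In control cells Egr1 had 1.45 and 1.23 CPM in IFN-gamma libraries against 10.8 and 10.9 CPM in vehicle libraries. The directions were opposite, and the difference of 4.01 ± 0.25 (edgeR adjusted p = 4.89e-10) was the fifth largest among those above control cells. Fosl1, another AP-1 subunit, and Dusp5, an ERK phosphatase, rose by 0.28 ± 0.05 and 0.71 ± 0.08 where control cells fell by 1.79 and 0.69.

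Of 17 TGF-beta and SMAD genes 10 rose and 1 fell, with a median of 0.23. Ccn1, a matrix protein, had 552 and 572 CPM in the IFN-gamma libraries against 264 and 257 CPM in the vehicle libraries. Of 21 genes of epithelial and mesenchymal identity 10 rose, 7 fell and 4 were not called, with a median of 0.12. The mesenchymal marker Vim was not called, and Fn1, fibronectin, rose by 0.73 ± 0.04. The junction genes Cdh1 and Cldn4 rose by 0.63 ± 0.04 and 0.57 ± 0.05. Of the keratins, Krt7 had 591 and 557 CPM in the IFN-gamma libraries against 1229.6 and 1189.8 CPM in the vehicle libraries, and Krt8 and Krt18 changed by -0.46 ± 0.04 and -0.61 ± 0.05. S100a4, a calcium-binding protein linked to cell motility, had 346 and 301 CPM in the IFN-gamma libraries against 1455 and 1525 CPM in the vehicle libraries (log2 fold change -2.20 ± 0.08, edgeR adjusted p = 9.43e-14). Of 15 matrix protease genes 4 rose and 7 fell, with a median of -0.11, against 6 and 5 with a median of 0.02 under the length offsets. Mmp13, a collagenase, rose by 1.74 ± 0.06, and Mmp3, stromelysin, had 118 and 114 CPM in the IFN-gamma libraries against 273 and 280.4 CPM in the vehicle libraries, a log2 fold change of -1.25 ± 0.04.

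By fold, within the same limits on level and overlap, the 12 largest rises were the genes Cxcl9, Batf2, Iigp1, H2-Eb1, H2-Aa, Mpeg1, Cxcl11, Serpina3f, Gm43302, Tgtp1, Gbp10 and Tgtp2, each at or under 1.33 CPM in both vehicle libraries. Mpeg1, the gene of the pore-forming protein perforin-2, had 31.4 and 32.4 CPM in the IFN-gamma libraries and 2 counts in all in the vehicle libraries. The ratio was 581 with a 95% counting interval from 161 to 4804. The falls were smaller: beside Mir17hg they were Mgp, with 0.515 and 0.547 CPM in the IFN-gamma libraries against 4.33 and 4.59 CPM in the vehicle libraries, and Rdm1, with 2.72 and 1.54 CPM against 14.6 and 16.9 CPM. Mgp encodes matrix Gla protein, an inhibitor of calcification, and Rdm1 a protein of DNA repair. The others of these 12 were led by C030014I23Rik, with 0 and 0.199 CPM in the IFN-gamma libraries against 3.02 and 2.41 CPM in the vehicle libraries, and Gm10259, with 0 and 2.83 CPM against 37.6 and 33.2 CPM, and held Gm37697, Gm26532, Gm49325, Gm8355, Rab26os, Gm4149 and Mrgprb2. The fall of C030014I23Rik was lost without sgRNA1 IFN-gamma replicate 1 (-3.74, edgeR adjusted p = 0.0805), and neither it, Gm10259 nor Gm49325 was called by DESeq2 (adjusted p = 0.109, 0.202 and 0.0858). By change in CPM, the falls were led by Eef1a1, Lgals1, Ppia, S100a6, Hspa8, Rpl41, Rpsa, Rps3, Ptma and Rack1, the last of them a protein of the small ribosomal subunit. Hspa8, a constitutive chaperone, had 1074 and 1020.1 CPM in the IFN-gamma libraries against 2985 and 3015 CPM in the vehicle libraries (log2 fold change -1.52 ± 0.04). S100a6 had 1315 and 1209 CPM against 3448 and 3509 CPM. Beside genes given above (Fn1, H2-D1, Nos2, Gbp2, Gbp4, Gbp2b, Cxcl5 and Cxcl1), the rises in CPM were led by Eef2, a translation elongation factor, with 3469 and 3513 CPM in the IFN-gamma libraries against 2486 and 2352 CPM in the vehicle libraries, and Pabpc1, the poly(A)-binding protein, which rose by 0.65 ± 0.04.

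The 10 largest differences below control cells were those of C1s2, Cfb, H2-Ab1, Ifi47, Tgtp2, Add2, Pagr1a, Apol6, C030014I23Rik and Gm12185. C1s2, a complement protease, had 8.62 and 9.24 CPM in sgRNA1 IFN-gamma libraries against 0.755 and 0.845 CPM in sgRNA1 vehicle libraries, and 8.46 and 7.76 CPM in control IFN-gamma libraries with no count in control vehicle libraries. Cfb, complement factor B, had 5.62 and 5.71 CPM in sgRNA1 IFN-gamma libraries against 0.453 and 0.543 CPM in sgRNA1 vehicle libraries, and 6.62 and 6.89 CPM in control IFN-gamma libraries with no count in control vehicle libraries. Between the lines, the vehicle levels of both genes differed by the test (edgeR adjusted p = 1.53e-05 and 0.000125), while the IFN-gamma levels differed by 0.14 ± 0.17 and -0.25 ± 0.19 on the log2 scale and did not pass (edgeR adjusted p = 0.486 and 0.252). The fitted differences of response, -6.85 and -6.56, rest on a control arm without a count and give no size. H2-Ab1, Tgtp2, Apol6 and Gm12185 had no count in the control vehicle libraries either. Pagr1a was not called in sgRNA1 cells, and its difference of -4.95 was 4.07 without control IFN-gamma replicate 2 (edgeR adjusted p = 0.632) and was not called by DESeq2 (adjusted p = 0.221). The difference of Apol6 was lost without either control vehicle library or sgRNA1 vehicle replicate 2 (edgeR adjusted p between 0.0647 and 0.123). That of C030014I23Rik was -2.21 without control IFN-gamma replicate 1 (edgeR adjusted p = 0.569), and it was also lost without control vehicle replicate 1 or any sgRNA1 library. Add2, the gene of beta-adducin, a protein of the membrane skeleton, had 0 and 0.0994 CPM in sgRNA1 IFN-gamma libraries against 1.21 and 1.75 CPM in sgRNA1 vehicle libraries. The 10 largest differences above control cells were those of Gm10163, A630072M18Rik, Gsta1, Kbtbd8, Zfp335os, Gm6361, Serpinb2, B230377A18Rik, Tchh and Egr1. Of these Gm10163, Tchh and Egr1 were called in sgRNA1 cells, Tchh not without sgRNA1 IFN-gamma replicate 1 (1.18, edgeR adjusted p = 0.0569). The largest difference above control cells was that of Gm10163, a processed pseudogene, which rested on 1 library, with 0 and 42.3 CPM in sgRNA1 IFN-gamma libraries and no count in sgRNA1 vehicle libraries. Without IFN-gamma replicate 2 its log2 fold change was 0.00. The difference of Gm6361 was lost without control vehicle replicate 1, control IFN-gamma replicate 1, sgRNA1 vehicle replicate 1 or either sgRNA1 IFN-gamma library (edgeR adjusted p between 0.0546 and 0.189). Kbtbd8, an adaptor of a ubiquitin ligase, had 4.83 and 6.26 CPM in sgRNA1 IFN-gamma libraries and 6.64 and 8.27 CPM in sgRNA1 vehicle libraries, and 0.193 and 0.411 CPM in control IFN-gamma libraries against 9.50 and 7.86 CPM in control vehicle libraries.

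Of the genes called in both lines, 1337 rose and 1083 fell in sgRNA1 and in control cells without a called difference between the responses. A further 1169 rose in both lines with a smaller response in sgRNA1 cells, and 402 rose in both with a larger one. In opposite directions, with the difference also called, 636 genes rose in sgRNA1 cells and fell in control cells (4.68% of the tested genes), and 618 fell in sgRNA1 cells and rose in control cells (4.54%). Slc16a6, a monocarboxylate transporter family member, had 12 and 11.6 CPM in sgRNA1 IFN-gamma libraries against 5.03 and 4.65 CPM in sgRNA1 vehicle libraries. The control line had 2.56 and 3.24 CPM in IFN-gamma libraries against 11.1 and 12.6 CPM in vehicle libraries, and the responses differed by 3.32 ± 0.22. Klhl24, a substrate adaptor of a ubiquitin ligase, went the other way, with 19.3 and 19.2 CPM in sgRNA1 IFN-gamma libraries against 25.3 and 26.6 CPM in sgRNA1 vehicle libraries. In control cells it had 95.1 and 95.2 CPM in IFN-gamma libraries against 16.8 and 17.2 CPM in vehicle libraries, and the difference was -2.91 ± 0.09. Pdcd4, an inhibitor of translation, had 8.34 and 6.76 CPM in sgRNA1 IFN-gamma libraries against 10.8 and 9.17 CPM in sgRNA1 vehicle libraries, and 47.0 and 47.8 CPM in control IFN-gamma libraries against 7.33 and 5.30 CPM in control vehicle libraries. The difference of -3.31 ± 0.19 was called, while its fall in sgRNA1 cells was lost without sgRNA1 vehicle replicate 1 or IFN-gamma replicate 2 (-0.28 and -0.27, edgeR adjusted p = 0.202 and 0.191).

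Against sgRNA2 cells the differences at 2-fold or more were mostly on the higher side, 586 genes (4.31%) against 202 lower (1.49%). Txnip, a regulator of glucose uptake and redox state, had 68.9 and 72.4 CPM in sgRNA1 IFN-gamma libraries against 46.5 and 49.2 CPM in sgRNA1 vehicle libraries. In sgRNA2 cells it had 43.2 and 43.9 CPM in IFN-gamma libraries against 274 and 276 CPM in vehicle libraries, so it rose in sgRNA1 and fell in sgRNA2 cells, with a difference of 3.22 ± 0.07 (edgeR adjusted p = 2.47e-15). The other 9 of the 10 largest above sgRNA2 cells were Gm47939, Prdm1, Ifit3b, Gm6361, Aire, Mab21l3, Myo7a, Dhrs3 and Il1bos. Prdm1, a transcriptional repressor, had 1.64 and 1.14 CPM in sgRNA1 IFN-gamma libraries against 0.302 and 0 CPM in sgRNA1 vehicle libraries, and 1.5 and 0.510 CPM in sgRNA2 IFN-gamma libraries against 4.56 and 3.80 CPM in sgRNA2 vehicle libraries. Those below sgRNA2 cells were, beside Ccl7, Gm2446, Gm6565, Gm7887, Gm28438, Ifi207, Gm49384, Rpl27-ps3, Gm8355 and Ccnb1ip1. Of these Gm2446, Gm6565, Gm7887, Gm28438, Rpl27-ps3 and Gm8355 are annotated as pseudogenes. Ccl7, a monocyte chemokine, responded less than in sgRNA2 cells, by a difference of -2.06 ± 0.52, which was lost without sgRNA2 vehicle replicate 1 (-1.23, edgeR adjusted p = 0.0591). It had 18.1 and 17.2 CPM in sgRNA1 IFN-gamma libraries and 1.26 and 1.45 CPM in sgRNA1 vehicle libraries, against 12.4 and 12 CPM in sgRNA2 IFN-gamma libraries and 0.0518 and 0.397 CPM in sgRNA2 vehicle libraries. For Cebpd itself the responses of the lines, both labelled Cebpd knockout, differed by 0.12 ± 0.15, which did not pass the test (edgeR adjusted p = 0.549).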

How the data were processed

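RNA of 12 samples was sequenced; per the labels, libraries were made with a TruSeq RNA kit from total RNA. The authors deposited 1 table of raw read counts per gene, with no normalization. STAR 2.4.0, HTSeq, DESeq2 1.10 and the build mm10 are named, without their roles, per the submitters' processing notes; neither annotation nor strand setting is known here. The kit does not mark strand, so antisense partners cannot be told apart, and reads of near-identical copies (Tgtp, Gbp, H2, Serpina3, Oas and Ifit3 genes) may be split between them. The 4 sgRNA1 libraries held between 16912710 and 20221146 counts.

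From the counts, all 12 libraries were fitted in edgeR 4.0.16 (R 4.3.3) with 6 group means, TMM scaling, filterByExpr (a minimum count of 10 and of 15 in total) and the quasi-likelihood F test, with Benjamini-Hochberg adjustment over 13601 genes and a threshold of 0.05. Differences of response are interaction contrasts of that fit; those against control and against sgRNA2 cells share the sgRNA1 libraries. The SE is the log2 fold change divided by the square root of F. CPM use TMM library sizes. A gene without a count was given a floor of 3 counts per library; floors and 95% counting intervals cover counting error only. For length and location, 13523 tested genes were matched to GENCODE vM21 (GRCm38), 191 of them through a synonym in RefSeq; promoter and miRNA sequences are RefSeq's. The fit was run on simulated counts in which few genes changed, in the sgRNA1 IFN-gamma group only, and all genes shared the same spread. That setting is simpler than these data, so it does not check the share of genes called here.

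Members and gene lists were chosen with earlier results of these data known. Genes were named by rule: the 12 largest called rises and falls in fold without overlap of the arms, with a mean of at least 1 CPM, the 10 largest each way in CPM, the 10 largest differences each way from each other line, the 10 each way called in opposite directions with at least 5 CPM, and members of the lists; a few are not reported here. Alternatives were other scalings, other filters, DESeq2 1.42.0, the compared groups alone, a replicate block, each library left out and, added after the data were seen, offsets for gene length.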

Additional observations from a re-analysis of the deposited data

Results flagged for a closer look

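The genes here passed the test of the difference itself, an interaction term in edgeR, and were called in opposite directions in the 2 cell lines compared. Values are log2 responses to IFN-gamma, and their differences are sgRNA1 minus the other line.

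Among genes that rose in sgRNA1 and fell in control cells, Egr1 stood first, with a difference of 4.01. Slc16a6 followed with 3.32, and Jrk, a DNA-binding protein gene, with 2.90. Ribosome biogenesis genes in this class were Rrp12 (2.69) and Mdn1 (2.63). The tRNA methyltransferase gene Trmt12 differed by 2.62, the protease gene Adamts8 by 2.57, Slc7a11 by 2.53 and the phosphatase regulator Ppp1r10 by 2.51.

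Among genes that fell in sgRNA1 and rose in control cells, Dbp, a clock-controlled transcription factor gene, differed by -4.4. Its sgRNA1 libraries had 1.73 and 0.795 CPM in IFN-gamma and 2.27 and 2.11 CPM in vehicle. Asb2, a ubiquitin ligase adaptor, differed by -4.29, Enpp2, the gene of autotaxin, by -3.86, and Vsir, the gene of the checkpoint protein VISTA, by -3.45. Rdm1 differed by -3.41, Pdcd4 by -3.31, Psrc1, a spindle protein gene, by -3.04 and Klhl24 by -2.91. Coro6, of the coronin family, differed by -2.75 and Tmem86a, a lysoplasmalogenase gene, by -2.71.

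Against sgRNA2 cells, Prdm1 differed by 5.16, Myo7a, a myosin gene, by 3.68 and Dhrs3, a retinal reductase gene, by 3.41. Il1bos, annotated as an antisense gene, differed by 3.24 and Txnip by 3.22. All of these rose in sgRNA1 and fell in sgRNA2 cells. The other way round, Gm6565 differed by -4.37 and Gm28438 by -3.33, both annotated as pseudogenes. Of the calls in sgRNA1 cells alone, those of Jrk and Rrp12 were not made by DESeq2 (adjusted p = 0.106 and 0.161), nor with upper quartile scaling (log2 fold changes of 0.40 and 0.08, edgeR adjusted p = 0.101 and 0.33), and that of Jrk not with length offsets (edgeR adjusted p = 0.104). Those of Jrk and Myo7a were lost without any 1 of the 4 sgRNA1 libraries (edgeR adjusted p between 0.0618 and 0.229 for Jrk and between 0.065 and 0.118 for Myo7a). Rrp12 lost its call without either vehicle library or IFN-gamma replicate 1 (edgeR adjusted p between 0.0765 and 0.209), Adamts8 without IFN-gamma replicate 2 (edgeR adjusted p = 0.0516) and Dhrs3 without IFN-gamma replicate 1 (edgeR adjusted p = 0.0506). Il1bos lost it without vehicle replicate 2 or IFN-gamma replicate 1 (edgeR adjusted p = 0.0936 and 0.0594). The fall of Pdcd4 was lost without vehicle replicate 1 or IFN-gamma replicate 2 (edgeR adjusted p = 0.202 and 0.191). That of Dbp was -0.34 without sgRNA1 IFN-gamma replicate 2 (edgeR adjusted p = 0.404), and it was also lost without either sgRNA1 vehicle library (edgeR adjusted p = 0.152 and 0.0826), with a replicate block (-0.78, edgeR adjusted p = 0.0519), with the compared groups alone (edgeR adjusted p = 0.0582) and with length offsets (edgeR adjusted p = 0.0711).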

How the results depend on the processing

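The count of 8350 genes called in the sgRNA1 response was between 8240 and 8465 with other scalings, other filters or the compared groups alone, 7467 with DESeq2 and between 7140 and 7488 with 1 sgRNA1 library left out. Called differences numbered 7492 against control cells (6705 with DESeq2, between 6843 and 6959 with 1 library left out) and 5820 against sgRNA2 cells (4901 with DESeq2, where 792 adjusted p were NA, and between 4912 and 5450 with 1 library left out). Same-numbered libraries did not deviate together (correlations between -0.0788 and 0.0642), and a replicate block gave 8304, 7460 and 5794 calls. With upper quartile scaling the all-gene median was -0.09 and the share of higher genes among calls 42.7%, against 51.7%, and 739 calls of the response were lost. With offsets for gene length, added after the data were seen, 7945, 7503 and 5532 genes were called, and 96 genes called in the response were called in the opposite direction. Among named genes, those offsets turned the response of Aurka to 0.13, of Car9 to 0.15 and of Fasn to -0.30. With 1 library left out, the response of Gm10163 was between 0.00 (without sgRNA1 IFN-gamma replicate 2) and 12.70. The difference from control was between -6.41 and 1.29 for Tnfsf10 (positive without sgRNA1 vehicle replicate 2) and between -5.98 and 4.07 for Pagr1a (without control IFN-gamma replicate 2). The cause was not tested. With 2 libraries a group, genes with few counts are the least certain, and fitted fold changes against an arm without a count depend on the prior count.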
